A study of Arabidopsis thaliana with 4 samples.

Results

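This comparison sets the mutant ccr4a ccr4b ddm1 rdr2, called the quadruple mutant below, against the mutant ccr4a ccr4b, and so describes what DNA methylation was left in leaves without DDM1 and RDR2 when CCR4A and CCR4B were also missing. Both genotypes carry the losses of CCR4A and CCR4B, and only the quadruple mutant carries those of DDM1 and RDR2. The pair was chosen by its genotype labels and makes up 2 of the 4 enzymatic methyl-seq libraries of the study. Each was made from genomic DNA of leaves of soil-grown Arabidopsis thaliana plants, 6 weeks old, in the accession Columbia (Col-0). The other libraries, ddm1 rdr2 and the wild type (WT), serve here for classes of bins and for the same mutations in plants with CCR4A and CCR4B. The labels name neither the alleles nor the number of plants per library, and each genotype has 1 library, so no difference between genotypes has a replicate check. The positions of the mutated genes on the reference used were not matched, so the genotypes were not checked at those genes, and methylation files hold no expression markers of leaf.

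Plants methylate cytosine in the contexts CG, CHG and CHH, where H stands for A, C or T. MET1 copies CG methylation after replication, CMT3 keeps CHG methylation, and CHH methylation is placed by CMT2 in long heterochromatic elements and by DRM2 where small RNAs guide it. DDM1 is a chromatin remodeller that gives these enzymes access to heterochromatin, RDR2 is the RNA-dependent RNA polymerase that makes the precursors of the guiding small RNAs, and CCR4A and CCR4B are deadenylases, which shorten the poly(A) tails of RNA.

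The nuclear chromosomes received 785451909 calls in the quadruple mutant and 574097022 in ccr4a ccr4b, where a call is 1 cytosine of a read scored as methylated or unmethylated. Coverage was less even in ccr4a ccr4b. Covered cytosines had a median of 16 calls in the quadruple mutant and 10 in ccr4a ccr4b, 26.1% and 52.2% of the listed cytosines had no calls, and 30.4% and 68.0% of the calls lay on cytosines with over 3 times the median. Levels were read at the 18972180 cytosines with at least 4 calls in both libraries, 39.8% of the 47652272 listed, each weighted equally. The shares usable in this way were 54.4% in the pericentromere, 40.6% in the arms and 6.89% in the satellite windows. In the chloroplast, whose DNA serves as the unmethylated control, 0.0881% of CG calls in the quadruple mutant and 0.108% in ccr4a ccr4b were methylated. Of the CHH calls there, 0.0737% and 0.102% were methylated. The 95% intervals in the text cover counting error only, with calls taken as independent. Copies of a molecule made by PCR could not be told from separate molecules, so the intervals may be too narrow.

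The quadruple mutant had less methylation than ccr4a ccr4b in all 3 contexts. The mean level of single nuclear cytosines was 12.7% in the quadruple mutant against 31.2% in ccr4a ccr4b in CG, 2.77% against 11.5% in CHG, and 1.04% against 3.13% in CHH. The quadruple mutant thus had 40.6% of the CG level of ccr4a ccr4b, 24.0% of its CHG level and 33.2% of its CHH level. This amounts to -18.5 points in CG, -8.77 points in CHG (95% interval -8.79 to -8.76) and -2.09 points in CHH (-2.10 to -2.09). Each was negative on all 5 chromosomes, with ranges of -22.4 to -13.0 points in CG, -10.6 to -6.34 points in CHG and -2.32 to -1.67 points in CHH. In windows of 0.2 Mb along the chromosomes, CG was lower in the quadruple mutant in 648 of 658 windows, CHG in 547 of 640 and CHH in 586 of 660. With all calls pooled, which gives deeply covered cytosines more weight, the CG difference was -30.6 points, the CHG difference -17.3 points and the CHH difference -4.04 points.

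The CG difference was larger around the centromeres than in the arms. In the pericentromere, taken as the 2 Mb on either side of the satellite arrays, the CG level was 12.6% in the quadruple mutant and 71.8% in ccr4a ccr4b, a difference of -59.2 points (-59.3 to -59.2), and it lay between -62.9 and -57.0 points on each of the 5 chromosomes. CHG was 7.04% in the quadruple mutant and 37.6% in ccr4a ccr4b there, and CHH was 2.26% and 8.55%. In the arms the CG level was 12.9% in the quadruple mutant and 19.6% in ccr4a ccr4b, a difference of -6.65 points (-6.67 to -6.64). The quadruple mutant thus had 66.0% of the CG level of ccr4a ccr4b in the arms but 17.5% in the pericentromere, and its CG level was nearly the same in both places. With all calls pooled, the arm CG level was 12.3% in the quadruple mutant and 28.2% in ccr4a ccr4b, a difference of -15.9 points, so the share left in the arms depends on the weighting; the pooled pericentromeric difference was -61.6 points. Arm CHG was 1.67% in the quadruple mutant and 4.49% in ccr4a ccr4b, and arm CHH was 0.501% and 1.42%. Pooled, the arm differences were -8.63 points in CHG and -2.19 points in CHH, against -2.83 and -0.918 points with equal weights.

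**Figure D1:**
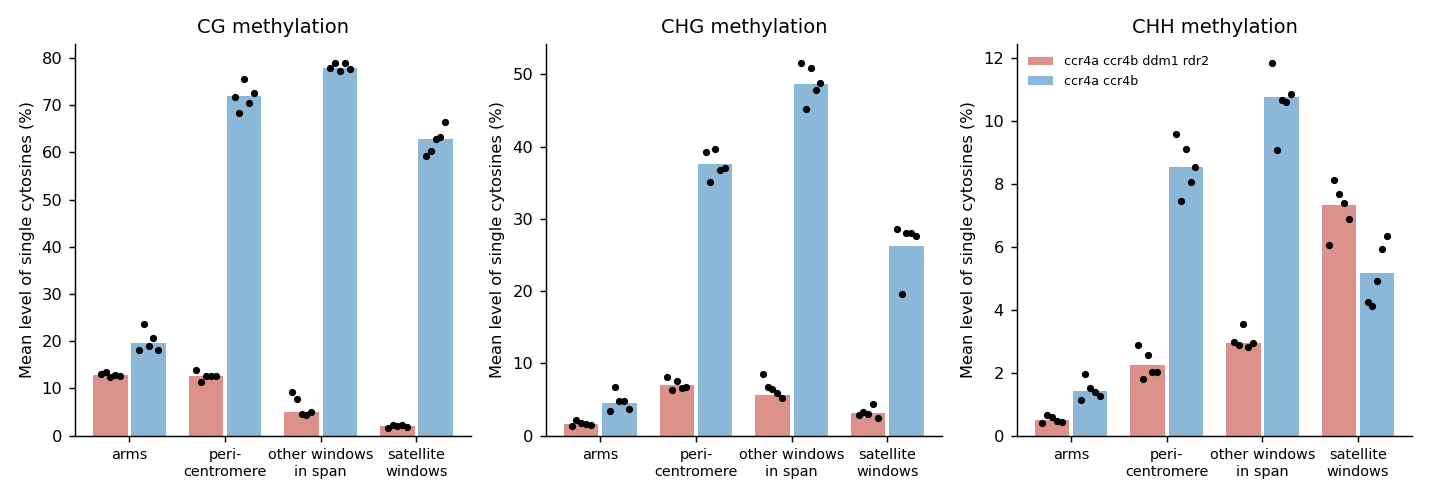
Mean methylation level of single cytosines (y axis, %) by region (x axis) in CG, CHG and CHH, with bars for the quadruple mutant (red) and ccr4a ccr4b (blue) and points for the 5 chromosomes. CG and CHG bars are lower in the quadruple mutant in every region, and CHH is the one context with the higher bar in the quadruple mutant, in satellite windows (7.32% against 5.18%).

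Levels in ccr4a ccr4b dropped steeply with distance from the satellite arrays, and CG levels in the quadruple mutant did not. Within 0.5 Mb of the arrays the CG level was 9.43% in the quadruple mutant and 73.6% in ccr4a ccr4b. At 2.5 to 3 Mb it was 17.3% in the quadruple mutant and 35.7% in ccr4a ccr4b, and beyond 8 Mb it was 11.3% and 13.3%. The CG level of the quadruple mutant was thus lowest next to the arrays and highest at 2.5 to 3 Mb, while that of ccr4a ccr4b was highest at 0.5 to 1 Mb, at 75.9%. CHG and CHH also fell towards the chromosome ends in the quadruple mutant, by fewer points than in ccr4a ccr4b and from lower levels. Its CHG level was highest at 1 to 1.5 Mb, at 7.74%. CHG was 6.52% within 0.5 Mb and 0.818% beyond 8 Mb in the quadruple mutant, against 40.02% and 1.32% in ccr4a ccr4b. CHH was 2.38% and 0.257% in the quadruple mutant, against 8.71% and 0.534% in ccr4a ccr4b.

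**Figure D2:**
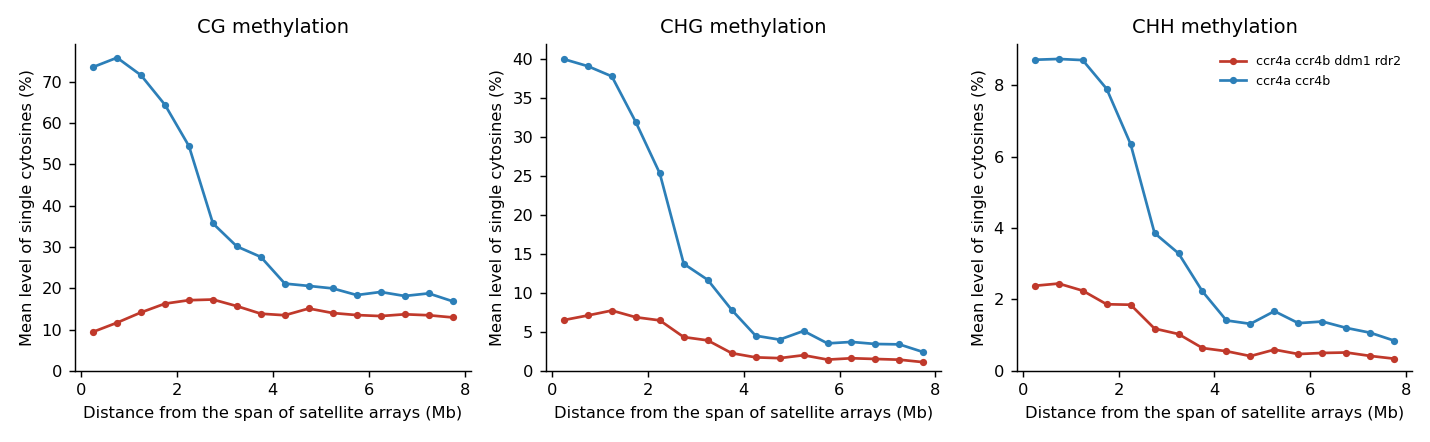
Mean methylation level of single cytosines (y axis, %) in steps of 0.5 Mb from the span of the satellite arrays (x axis, Mb), for the quadruple mutant (red) and ccr4a ccr4b (blue). The CG line of the quadruple mutant stays between 9.43% and 17.3%, whereas that of ccr4a ccr4b reaches 75.9% near the arrays.

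The distribution over single CG sites differed as well as the mean. In the pericentromere, 1.97% of CG cytosines in the quadruple mutant and 53.8% in ccr4a ccr4b had a level of 80% or more, and 41.7% and 10.04% had no methylated call. Pericentromeric CG cytosines with a methylated call but a level under 20% made up 35.9% in the quadruple mutant and 1.71% in ccr4a ccr4b. Leaf DNA comes from several cell types, and a partial level in every cell cannot be told apart from a mixture of cells. A CG site has a cytosine on each strand, and the pair is called a dyad. Of 275511 pericentromeric dyads, 4.62% in the quadruple mutant and 80.4% in ccr4a ccr4b had at least 50% methylation on both strands, and 3.42% and 9.81% had it on 1 strand only. In the arms both strands reached 50% in 13.1% of 947297 dyads in the quadruple mutant and in 21.2% in ccr4a ccr4b. In the satellite windows they did so in 0.117% of 4285 dyads in the quadruple mutant and in 51.5% in ccr4a ccr4b.

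Among CHG sites, CCG had the lowest level in both libraries and the smallest share left in the quadruple mutant. In the pericentromere CAG had 8.15% in the quadruple mutant and 40.8% in ccr4a ccr4b, and CTG had 8.22% and 41.3%. CCG had 3.07% in the quadruple mutant and 25.3% in ccr4a ccr4b, so that 12.1% of the ccr4a ccr4b level was left, against 19.97% at CAG and 19.9% at CTG. The arms showed the same order, with 1.06% at CCG in the quadruple mutant and 3.69% in ccr4a ccr4b, and 1.84% and 4.71% at CAG. CG levels varied with the next base as well: CGT, with the lowest arm level in both libraries, had 9.59% in the quadruple mutant and 15.7% in ccr4a ccr4b, and CGA had 14.8% and 21.5%.

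Among CHH sites, CAA and CTA are the trinucleotides that CMT2 prefers in Arabidopsis. They had the highest pericentromeric CHH levels in both libraries, with 5.68% at CAA in the quadruple mutant and 22.0% in ccr4a ccr4b, and 6.08% and 21.9% at CTA. CTC had 1.60% in the quadruple mutant and 6.70% in ccr4a ccr4b, and CCC had 0.394% and 1.20%. The share of the ccr4a ccr4b level left in the quadruple mutant varied little over these sites, from 23.9% at CTC to 32.7% at CCC. In the arms CAA had 1.19% in the quadruple mutant and 3.04% in ccr4a ccr4b, and CTA had 1.30% and 3.30%.

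**Figure D3:**
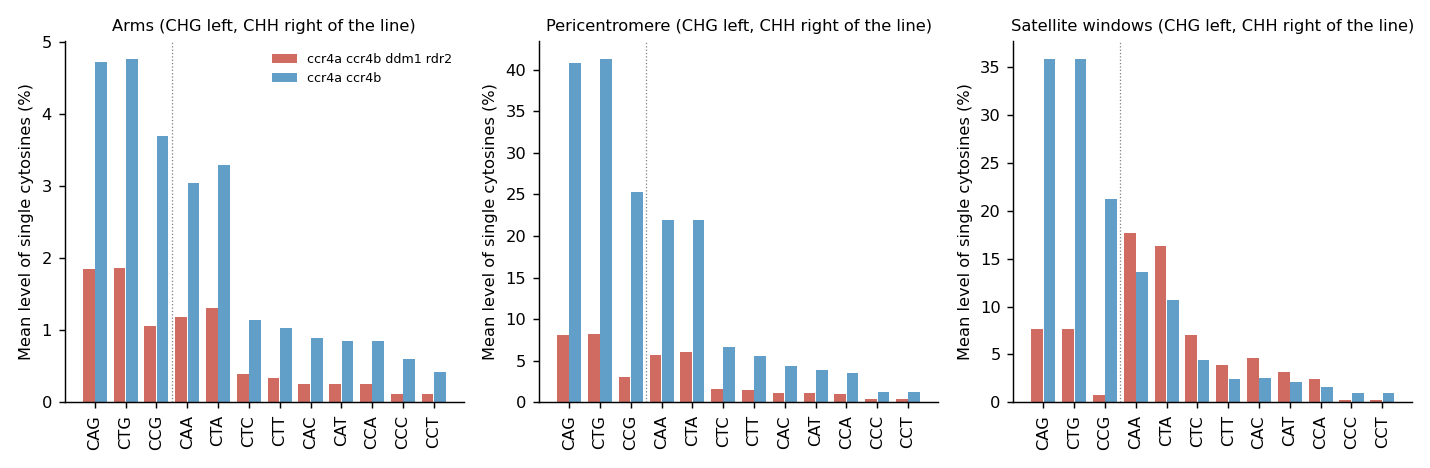
Mean methylation level of single cytosines (y axis, %) at each CHG and CHH trinucleotide (x axis) in arms, pericentromere and satellite windows, for the quadruple mutant (red) and ccr4a ccr4b (blue). All trinucleotides are lower in the quadruple mutant in arms and pericentromere, while 7 of the CHH trinucleotides are higher in it in satellite windows, led by CAA at 17.7% against 13.6%.

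Of the regions plotted, the centromeric satellite had the smallest share of CG methylation left and the only CHH level that was not lower. Satellite windows are stretches of 10000 bp where 50% or more of the cytosines came back at the repeat length of the satellite, on the same strand and in the same trinucleotide. Their CG level was 2.04% in the quadruple mutant and 62.9% in ccr4a ccr4b, a difference of -60.9 points (-61.1 to -60.7), so that 3.24% of the ccr4a ccr4b level was left. CHG was 3.15% in the quadruple mutant and 26.3% in ccr4a ccr4b. At CCG, which makes up 9089 of the 13866 satellite CHG sites read, the level was 0.792% in the quadruple mutant and 21.3% in ccr4a ccr4b, and at CAG it was 7.64% and 35.9%. The CHH level was 7.32% in the quadruple mutant and 5.18% in ccr4a ccr4b, a difference of 2.15 points (2.08 to 2.21). It was higher in the quadruple mutant on all 5 chromosomes, by 1.81, 4.002, 2.78, 1.45 and 0.531 points on chromosomes 1 to 5. Windows that lie between the satellite windows without being satellite had lower CHH in the quadruple mutant, 2.96% against 10.8%, and lower CG, 5.04% against 77.9%.

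The higher satellite CHH lay at the trinucleotides with the highest levels. CAA had 17.7% in the quadruple mutant and 13.6% in ccr4a ccr4b, and CTA had 16.4% and 10.7%. CTC had 7.03% in the quadruple mutant and 4.45% in ccr4a ccr4b, and CAC had 4.60% and 2.56%. All CHH trinucleotides except CCC and CCT were higher in the quadruple mutant, each on all 5 chromosomes. CCC, with 0.230% in the quadruple mutant and 1.02% in ccr4a ccr4b, and CCT, with 0.282% and 0.954%, were lower on all 5. The distribution over cytosines differed too: 64.3% of satellite CHH cytosines in the quadruple mutant and 90.9% in ccr4a ccr4b had no methylated call, 15.2% and 4.70% lay from 20% to 80%, and 0.126% and 3.04% reached 80%. Depth differed beside these shares, with 12.1 calls per cytosine in the quadruple mutant and 7.21 in ccr4a ccr4b, and its part in them was not tested.

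The direction of satellite CHH depended on the coverage required. When both libraries had to have 10 calls or more, the difference was -0.0130 points over 25596 cytosines, positive on chromosomes 1 to 3 and -2.44 and -2.50 points on chromosomes 4 and 5. When such cytosines were taken only from windows with a satellite share of at least 70%, an alternative chosen after these values were seen, the difference was 2.17 points (2.02 to 2.31), and it was positive on all 5 chromosomes, from 1.07 to 2.68 points. By calls in ccr4a ccr4b, the difference was 2.42 points at satellite cytosines with under 10 calls and 1.29 points with 10 to 19. It was -4.23 points at the 2528 cytosines with 20 to 49 calls and -6.99 points at the 1431 with 50 calls or more.

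Differences were then sought in bins of 100 bp with at least 4 cytosines of a context. The summed calls of a bin entered Fisher's exact test (two-sided), with Benjamini-Hochberg adjustment over all bins of a context. A bin was called when the adjusted p was under 0.01 and the libraries differed by 40 points or more in CG, 20 in CHG or 10 in CHH. This test compares 2 libraries, not genotypes. In CG, 86035 of 317923 bins were called (27.1%), of which 83977 were lower in the quadruple mutant (26.4%) and 2058 higher (0.647%). In CHG, 72583 of 354718 bins were called (20.5%), 71825 of them lower (20.2%) and 758 higher (0.214%). In CHH, 47368 of 622209 bins were called (7.61%), 43760 of them lower (7.03%) and 3608 higher (0.580%).

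As a control, the strands of the same library were compared at CG sites in bins with at least 2 sites per strand. The strands of the quadruple mutant differed in 352 of 275165 bins (0.128%) and those of ccr4a ccr4b in 9062 (3.29%), whereas the plus strands of the 2 libraries differed in 91255 of 351324 bins (26.0%). The plus strands gave 87637 bins lower in the quadruple mutant and 3618 higher. In the arms, 1.25% of bins were higher and 9.23% lower between the plus strands, while between the strands of ccr4a ccr4b 1.20% were higher and 1.21% lower. The share of higher bins was thus close to what the strands of ccr4a ccr4b gave in 1 direction, and the share of lower bins was above it.

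Called bins with lower methylation were spread unevenly. In the pericentromere 81.6% of CG bins, 69.4% of CHG bins and 21.5% of CHH bins were called lower in the quadruple mutant. In the arms the shares were 9.68%, 6.83% and 3.29%. Of 51872 pericentromeric bins tested in all contexts, 24823 were called lower in CG and CHG but not CHH, 11077 in all 3 contexts, 6380 in CG only, and 7446 had no call. Of 190060 such bins in the arms, 167420 had no call, and the lower ones were split more evenly, with 6807 in CG and CHG, 6102 in all 3 contexts and 5426 in CG only. In satellite windows, CHH bins went both ways, with 1623 higher in the quadruple mutant and 966 lower of 16381 tested, while in CG 1548 of 1866 were lower and 0 higher.

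Bins of 100 bp were also sorted by their methylation in the WT library, which belongs to neither side of the comparison. Bins with CG methylation alone, the pattern known from the bodies of expressed genes, had most of their CG methylation in both libraries. In 31335 such arm bins, with at least 50% CG, under 10% CHG and under 5% CHH in WT, the mean CG level was 63.2% in the quadruple mutant and 69.4% in ccr4a ccr4b, a difference of -6.19 points that lay between -7.41 and -4.86 points on the 5 chromosomes. The quadruple mutant thus had 91.1% of the ccr4a ccr4b level. Their CHG level was low in both libraries but higher in the quadruple mutant, 0.841% against 0.331%, by 0.301 to 0.638 points on the 5 chromosomes, beside 0.0986% and 0.111% in the CHG calls of the chloroplast. Only 0.303% of these bins were higher by 20 points or more in CHG, and their CHH level was 0.124% in the quadruple mutant and 0.123% in ccr4a ccr4b. These CHH levels are near the chloroplast shares of 0.0737% and 0.102%.

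Bins with non-CG methylation in WT, the pattern known from transposons and repeats, had little CG methylation left. The 3959 arm bins with CG and CHG but under 10% CHH had 24.4% CG in the quadruple mutant and 80.2% in ccr4a ccr4b, and 13.3% and 38.6% CHG. The 13448 arm bins with at least 10% CHH had 21.4% CG in the quadruple mutant and 80.7% in ccr4a ccr4b, 14.2% and 49.95% CHG, and 3.79% and 15.7% CHH. Bins of the same classes in the pericentromere had lower CG levels in the quadruple mutant than those in the arms, 11.9% with CG and CHG (13340 bins) and 11.01% with CHH (27869 bins), against 79.9% in ccr4a ccr4b in both classes. The 1765 pericentromeric bins with CG alone had 52.9% in the quadruple mutant and 72.0% in ccr4a ccr4b. The 117371 arm bins unmethylated in WT had 0.962% CG in the quadruple mutant and 0.927% in ccr4a ccr4b.

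**Figure D4:**
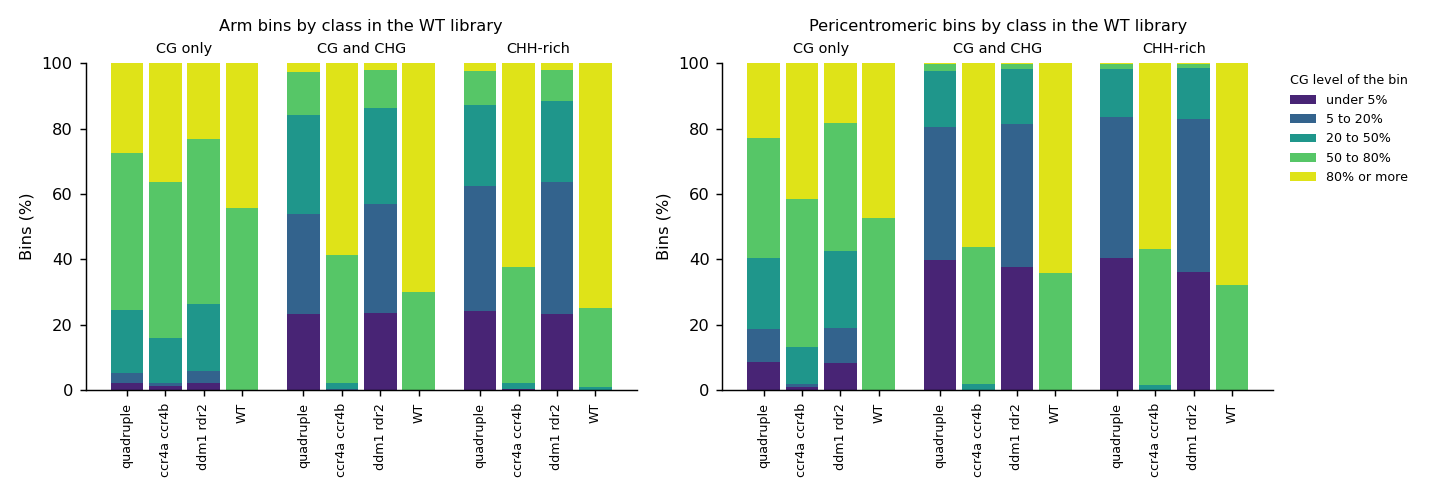
Share of 100 bp bins (y axis, %) in 5 classes of CG level (colours), for bins grouped by their methylation in the WT library (CG only, CG and CHG, CHH-rich), in the quadruple mutant, ccr4a ccr4b, ddm1 rdr2 and WT. Bins with CG alone show most of their CG methylation in the quadruple mutant (63.2% on average in the arms), and the other classes are mostly under 20%; the WT columns only show the limits that formed the classes.

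A minority of bins with CG and CHG methylation in WT had high CG methylation in the quadruple mutant. Among 40127 pericentromeric bins with at least 50% CG and 20% CHG in WT, 847 (2.11%) had at least 50% CG in the quadruple mutant, and among 16964 arm bins 2295 did (13.5%). In the ddm1 rdr2 library, 53.8% of these pericentromeric bins and 71.8% of these arm bins also had at least 50% CG, against 1.71% and 11.97% of all bins of the same kind. These bins had more non-CG methylation in the quadruple mutant as well, with a mean CHG level of 32.0% in the pericentromere and 37.4% in the arms, against 3.11% and 4.84% in the bins under 5% CG. Their mean GC content was 42.5% in the pericentromere, against 46.3% in the bins under 5% CG. Over pericentromeric cytosines, the CG level of the quadruple mutant fell with GC content, while that of ccr4a ccr4b rose. It was 24.7% in the quadruple mutant and 65.0% in ccr4a ccr4b where the surrounding 200 bp held under 30% GC. Where they held 50% or more, it was 8.74% and 74.4%. In the arms the quadruple mutant showed no steady order, with 13.0% under 30% GC, 16.0% at 40 to 45% and 6.04% at 50% or more. Depth moved with these differences, and its part in them was not tested. By calls in ccr4a ccr4b, the pericentromeric CG difference was -47.2 points at cytosines with under 10 calls and -67.4 points at those with 50 calls or more, and the arm difference was -3.32 and -16.2 points.

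Called bins at most 100 bp apart were merged into regions, and the 2 regions of most called bins, satellite windows left out, were taken for each context and direction. There were 19213 regions of lower CG, of which 8073 were a single bin, with a median of 2 bins and at most 167. The longest lay in the pericentromere of chromosome 3 at chr3:17284801-17302100, 17300 bp on the reference called ColCEN. Its mean CG level was 14.2% over 126747 calls in the quadruple mutant and 82.3% over 307491 calls in ccr4a ccr4b, its CHG level was 3.398% and 34.96%, and its CHH level was 0.845% and 8.64%. The second region of lower CG, at chr4:1893201-1909600 in the arm and 16400 bp long, had 3.77% CG in the quadruple mutant and 80.8% in ccr4a ccr4b. The longest region of lower CHG, at chr2:7429001-7440000 in the pericentromere, had 2.41% CHG in the quadruple mutant and 43.1% in ccr4a ccr4b, and 8.84% and 81.0% CG. The second, at chr1:19388801-19398500 in the arm, had 5.54% CHG in the quadruple mutant and 47.5% in ccr4a ccr4b. Both of these arm regions lay 2 to 2.5 Mb from the satellite arrays, just outside the pericentromere as defined here. At that distance the mean level of ccr4a ccr4b was 54.5% in CG and 25.4% in CHG, against 13.3% and 1.32% beyond 8 Mb.

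Of the 17233 regions of lower CHH, the 2 with the most called bins lay in the arms of chromosome 1. At chr1:8949801-8955400, 55 bins were called, and the CHH level was 1.95% in the quadruple mutant and 19.3% in ccr4a ccr4b. CG methylation there was 18.3% in the quadruple mutant and 83.0% in ccr4a ccr4b, and CHG was 15.2% and 57.7%. At chr1:21479301-21485100, 54 bins were called, with 0.768% CHH in the quadruple mutant and 17.6% in ccr4a ccr4b. The called bins of all these regions of lower methylation were chosen at an adjusted p under 0.01 in Fisher's exact test. Their largest adjusted p in that test, 0.00858 in the last region, was thus bound to lie under this limit and adds no evidence.

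The bins with the largest difference in the first region of each context make visible how the affected sites lie in the sequence. The letters were read from the trinucleotides listed for each cytosine, on the plus strand, and n marks a letter that no listed cytosine fixes. Capitals mark the C of each affected site (a G where the cytosine is on the minus strand), where its level was lower in the quadruple mutant by at least the limit of its context.
CG, chr3:17295401-17295500: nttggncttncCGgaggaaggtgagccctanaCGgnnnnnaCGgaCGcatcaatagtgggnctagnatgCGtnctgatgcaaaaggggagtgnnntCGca
CHG, chr2:7435801-7435900: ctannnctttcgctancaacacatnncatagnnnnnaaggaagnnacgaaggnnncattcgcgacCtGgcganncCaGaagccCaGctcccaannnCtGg
CHH, chr1:8949801-8949900: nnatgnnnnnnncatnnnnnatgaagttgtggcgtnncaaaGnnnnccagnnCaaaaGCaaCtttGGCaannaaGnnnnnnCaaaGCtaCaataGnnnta
In the CG bin all 12 cytosines of the context were marked, and the level was 2.5% of 640 calls in the quadruple mutant and 89.0% of 1503 calls in ccr4a ccr4b. In the CHG bin all 8 were marked, with 2.13% of 375 calls in the quadruple mutant and 77.8% of 248 calls in ccr4a ccr4b. In the CHH bin all 14 cytosines with enough calls were marked, with 2.27% of 88 calls in the quadruple mutant and 58.0% of 205 calls in ccr4a ccr4b.

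Regions of higher methylation were fewer. Of the 1975 regions of higher CG, 1900 were a single bin, as were 440 of 550 in CHG and 1081 of 1395 in CHH. Of the 1374 CG bins called higher in the arms with data in all 4 libraries, 45.3% had CG alone in WT, 26.6% were unmethylated in WT and 0.437% were CHH-rich. Over all 183666 arm bins with such data, the shares were 17.1%, 63.9% and 7.32%. In the strand control, 1.25% of arm bins were higher between the plus strands and 1.20% between the strands of ccr4a ccr4b. CHH-rich arm bins had a mean CG difference of -59.3 points, which leaves little room for a higher call. The shares therefore cannot be read as a trait of gains. Whether they differ from those of bins called between strands of the same library was not tested. The median CG levels of the 1374 bins were 70.05% in the quadruple mutant and 13.3% in ccr4a ccr4b, beside 59.7% for ddm1 rdr2 and 45.5% for WT. The bins were chosen for a low level in ccr4a ccr4b relative to the quadruple mutant, so the order of these 2 medians is no finding. Depth was lower in ccr4a ccr4b there, with 33.1 calls per cytosine in the quadruple mutant and 17.5 in ccr4a ccr4b, and its part in these calls was not tested. At chr4:12324601-12325000 in the arm, the CG level was 66.8% in the quadruple mutant and 14.8% in ccr4a ccr4b, beside 72.6% for ddm1 rdr2 and 62.3% for WT. At chr4:15357601-15358300 it was 67.2% over 2592 calls in the quadruple mutant and 20.8% over 688 calls in ccr4a ccr4b, with 61.0% in ddm1 rdr2 and 30.7% in WT.

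The longest regions of higher CHG and CHH outside the satellite had high CG methylation in ccr4a ccr4b, and they also stood higher in ddm1 rdr2 than in WT. At chr4:16561301-16562800 in the arm, 13 bins were called higher in CHG. The CHG level was 67.0% in the quadruple mutant and 27.0% in ccr4a ccr4b, against 53.8% in ddm1 rdr2 and 4.87% in WT, and CHH was 9.51% and 0.452%, against 7.34% and 0.123%. CG there was 78.8% in the quadruple mutant and 64.8% in ccr4a ccr4b, and 74.5% in ddm1 rdr2 and 49.2% in WT. At chr3:10402701-10403700 in the arm, CHG was 79.7% in the quadruple mutant and 44.2% in ccr4a ccr4b, while CG was 81.7% and 82.7%. The same stretch, extended to position 10404000, was also the second region of higher CHH, with 25.3% in the quadruple mutant and 2.02% in ccr4a ccr4b, beside 28.8% for ddm1 rdr2 and 4.20% for WT.

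The first region of higher CHH, at chr5:10945201-10946700 in the pericentromere, had 24.9% CHH in the quadruple mutant and 3.73% in ccr4a ccr4b over 14 called bins. CHG there was 76.1% in the quadruple mutant and 56.2% in ccr4a ccr4b, whereas CG was lower, 67.0% against 89.2%. In ddm1 rdr2 and WT the CHH levels were 29.0% and 5.95%. The called bins of these regions of higher CHG and CHH were also chosen at an adjusted p under 0.01. Their largest adjusted p in Fisher's exact test, 0.000268, therefore adds no evidence.

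**Figure D5:**
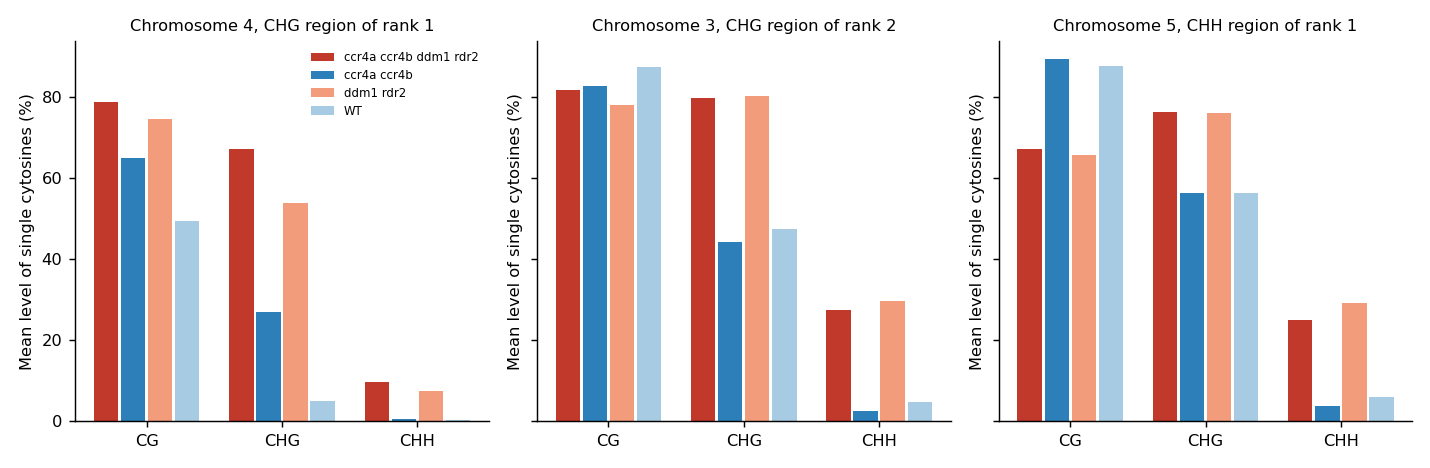
Mean methylation level of single cytosines (y axis, %) in CG, CHG and CHH (x axis) in 3 regions with higher CHG or CHH in the quadruple mutant, for the quadruple mutant, ccr4a ccr4b, ddm1 rdr2 and WT, with ranks by the number of called bins. The quadruple mutant and ddm1 rdr2 stand above ccr4a ccr4b and WT in CHG and CHH in each region, from 7.34% to 29.7% against 0.123% to 5.95% in CHH.

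For contrast, the bin with the largest difference in the first region of higher CG, CHG and CHH is given in the same notation, with capitals at cytosines whose level was higher in the quadruple mutant by at least the limit of the context.
CG, chr4:15358001-15358100: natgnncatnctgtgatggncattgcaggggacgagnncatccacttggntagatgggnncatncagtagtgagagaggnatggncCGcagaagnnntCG
CHG, chr4:16561601-16561700: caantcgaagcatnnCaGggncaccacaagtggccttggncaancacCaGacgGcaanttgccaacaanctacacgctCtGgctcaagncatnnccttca
CHH, chr5:10945201-10945300: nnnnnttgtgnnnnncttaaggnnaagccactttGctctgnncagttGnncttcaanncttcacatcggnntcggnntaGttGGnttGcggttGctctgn
The CG bin had 69.7% of 287 calls methylated in the quadruple mutant and none of 92 in ccr4a ccr4b. The absence of methylated calls allows a share of up to 3.26%, and 4 of the 5 cytosines with enough calls were marked. The CHG bin had 89.0% of 454 calls in the quadruple mutant and 24.4% of 663 calls in ccr4a ccr4b, with all 7 cytosines marked. The CHH bin had 46.8% of 237 calls in the quadruple mutant and none of 65 in ccr4a ccr4b, which allows up to 4.62%. All 7 of its cytosines with enough calls were marked, each on the minus strand, and its other CHH cytosines were not read. Both limits are 3 divided by the number of calls, with calls taken as independent, and may be too low.

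The same losses can be read in plants with CCR4A and CCR4B from ddm1 rdr2 and WT, which share no library with the pair. Where all 4 libraries had 4 calls or more, the pericentromeric CG level was 12.4% in the quadruple mutant and 72.4% in ccr4a ccr4b, beside 12.6% in ddm1 rdr2 and 74.2% in WT. The quadruple mutant had 17.2% of the ccr4a ccr4b level and ddm1 rdr2 had 16.99% of the WT level. The nuclear CG difference was -18.8 points for the quadruple mutant minus ccr4a ccr4b and -19.97 points for ddm1 rdr2 minus WT, and these differ by 1.12 points (1.11 to 1.14). In CHG the same value was -0.310 points (-0.324 to -0.297) and in CHH 0.565 points (0.558 to 0.572). In pericentromeric CHH, the quadruple mutant had 2.22% and ccr4a ccr4b 8.65%, and ddm1 rdr2 had 2.96% and WT 11.05%, so that the shares left were 25.7% and 26.8%. Whether these differences between backgrounds exceed the variation between plants cannot be told with 1 library per genotype.

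In satellite windows the CG differences of the backgrounds lay further apart than in the pericentromere, where they differed by 1.66 points (1.62 to 1.69). The CG level was 2.13% in the quadruple mutant and 63.7% in ccr4a ccr4b, and 3.69% in ddm1 rdr2 and 72.7% in WT. The differences of -61.6 and -69.0 points are thus 7.40 points apart (7.10 to 7.70). The shares left were 3.35% and 5.07%, and the wider gap lay between ccr4a ccr4b and WT. At satellite cytosines read in the pair, the CG level of ccr4a ccr4b was 62.0% with 4 to 9 calls and 78.3% with 50 or more. The part of depth was not tested. Satellite CHH was 7.30% in the quadruple mutant and 5.25% in ccr4a ccr4b, and 9.60% in ddm1 rdr2 and 8.34% in WT. The differences of 2.05 and 1.26 points are 0.794 points apart (0.688 to 0.899).

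Most CG and CHG bins called lower in one background were called lower in the other. For ddm1 rdr2 minus WT, 108674 of 441582 CG bins were lower (24.6%) and 3070 higher (0.695%), 79781 of 489593 CHG bins were lower (16.3%) and 867 higher (0.177%), and 66543 of 752818 CHH bins were lower (8.84%) and 5419 higher (0.720%). The lists were then limited to bins tested in both comparisons. Of 306372 such CG bins, 81757 were lower in the quadruple mutant minus ccr4a ccr4b and 85784 in ddm1 rdr2 minus WT. Of these, 77124 were lower in both, 94.3% and 89.9% of the lists. Of 341510 CHG bins, 70498 and 71095 were lower, and 63090 were lower in both, 89.5% and 88.7% of the lists. Of 573809 CHH bins, 42172 and 60942 were lower, and 29110 were lower in both, 69.0% and 47.8%. Of the higher bins among those tested in both, 334 in CG were shared, 17.3% of 1932 and 20.01% of 1669. In CHG 203 were shared, 28.5% of 713 and 37.7% of 538. In CHH 609 were shared, 19.7% of 3092 and 22.0% of 2764. No test of these overlaps was made.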

How the data were processed

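Enzymatic methyl-seq, in which enzymes protect methylated cytosines and convert the others, was applied to leaf DNA of 4 genotypes, 1 library each. The deposited values are counts of methylated and unmethylated calls for each of 47872605 cytosines, as the authors made them, with context and trinucleotide. Bismark 0.22.3 is named in the submitters' processing notes. That reads were trimmed, aligned with Bowtie 2 and placed on a reference called ColCEN is read from the deposited files' names; duplicate removal and the handling of reads with several matches are not given in the sources used here. No covered cytosine had fewer than 3 calls, so the files carry a floor of unstated origin.

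Levels were the mean over single cytosines with at least 4 calls in both libraries, which 39.8% of nuclear cytosines met. Interval half-widths come from the binomial variance of each cytosine. Regional levels of named regions weight cytosines equally; bin levels are shares of summed calls. Regions were defined from the files: satellite windows of 10000 bp, the span joining them with gaps of at most 20 windows (12.13 Mb in all, 1112 of 1213 windows satellite), the 2 Mb on each side of the span as pericentromere, and the arms. Bin tests are described with their results. Bin calling was tested on simulated data for this pair with 200 changed bins per context: 98% of those changed by 60 points in CG (317923 bins), 69.5% by 30 points in CHG (354718 bins) and 59% by 15 points in CHH (622209 bins) were called, with 0 unchanged bins called. The simulated calls were drawn independently, and only these 200 bins were changed, all of them upward. These rates therefore do not give the share of false calls in the real data. There, the strands of ccr4a ccr4b alone differed in 3.29% of CG bins. Bins with data on class needed 4 cytosines of each context with at least 4 calls in all 4 libraries.

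The pair, classes and lists were chosen with earlier results of these data known. Named regions were the 2 with the most called bins per context and direction outside satellite windows, ties by the larger difference. Gene start windows and the genes planned with them were not analysed here, since no sequence or annotation of this build was used. Python 3.11.15, NumPy 2.4.6, SciPy 1.17.1, pandas 2.3.3, numba 0.67.0 and matplotlib 3.10.9 were used.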

Additional observations from a re-analysis of the deposited data

Results flagged for a closer look

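On 2 chromosomes the satellite CHH difference had opposite signs in the 2 backgrounds, where all 4 libraries had 4 calls or more. On chromosome 4 the quadruple mutant minus ccr4a ccr4b was 0.863 points and ddm1 rdr2 minus WT was -0.608 points, and on chromosome 5 the values were 0.1996 and -0.363 points. With 1 library per genotype the difference between backgrounds was not tested.

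Mitochondrial cytosines, which no comparison above uses, had methylated calls above the chloroplast level in ccr4a ccr4b. In CG the methylated share was 0.248% in the quadruple mutant and 11.4% of 1411263 calls in ccr4a ccr4b, against 0.0881% and 0.108% in the chloroplast. In CHG it was 0.173% in the quadruple mutant and 5.59% in ccr4a ccr4b, and in CHH 0.108% and 1.07%. In ddm1 rdr2 and WT the mitochondrial CG shares were 0.299% and 10.7%. Of the 164268 mitochondrial cytosines listed, 135423 had no calls in ccr4a ccr4b and 134172 had none in the quadruple mutant. The shares thus come from a minor part of the sequence, and the origin of the methylated calls was not tested.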

How the results depend on the processing

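Of 54 level differences under alternatives, 53 kept their sign. Satellite CHH changed sign, to -0.0130 points with at least 10 calls; the values in the report show it moving with depth and satellite share. The sizes of the nuclear differences depended on the cytosines used. In CG they were -30.6 points with all calls pooled, -17.9 with at least 3 calls, -22.0 with at least 10, -13.5 without cytosines over 3 times the median, and -18.8 at cytosines covered in all 4 libraries. In the same order they were -17.3, -8.34, -11.3, -6.11 and -9.02 points in CHG, and -4.04, -1.96, -2.83, -1.53 and -2.18 points in CHH. The cause was not tested. Of 15 alternative bin counts, 10 stayed within 1.5 times the count reported. With 300 bp bins, 46862 of 197267 CG bins were called (23.8%), 38331 of 204944 CHG bins (18.7%) and 18489 of 263250 CHH bins (7.02%). Without highly covered cytosines, 43236 of 218297 CG bins (19.8%) and 34031 of 255274 CHG bins (13.3%) were called. Both settings tested fewer bins than the one reported above, in which 27.1% of CG, 20.5% of CHG and 7.61% of CHH bins were called. Combining at least 10 calls with a satellite share of 70% was added after seeing the data. No paired analysis was possible because the labels give 1 library per genotype. The satellite is the region where depth limits most, with 6.89% of its cytosines usable.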
